A study of Mus musculus with 10 samples.

Results

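The 4 libraries described here were made from intestinal tissue of C57BL/6 mice that had been given 2.5% dextran sulfate sodium (DSS) by mouth, 2 from wild-type mice (WT) and 2 from mice carrying an ITGB6-overexpressing transgene (TG). They are 4 of the 10 libraries of the series, chosen by treatment. The other 6 came from untreated tissue of the same strain, 3 WT and 3 TG, and served to estimate the spread and as the reference for the genotype effect without DSS. The study used DSS as a model of intestinal fibrosis. The labels give no promoter for the transgene, no age, no duration of DSS, no collection time and no number of animals per library, so the p-values measure the spread between these libraries, which may be technical.

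ITGB6 is the beta 6 subunit of the epithelial integrin that pairs with alpha v, and this integrin is known for binding the latency peptide of TGF-beta and so releasing the active cytokine. DSS damages the colonic epithelium and brings on inflammation followed by regeneration. Many genes of the gut epithelium follow the circadian clock, in which BMAL1 (gene Arntl) and its partners CLOCK and NPAS2 act on E-box sequences to switch on the Per and Cry repressors and the output factors Dbp and Tef, which in turn act on D-box sequences.

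Counts assigned to genes were 17374911 and 17976069 in the WT DSS libraries and 17702754 and 18284704 in the TG DSS libraries. Spearman correlations across the 14072 genes tested were 0.985 between the WT pair, 0.993 between the TG pair and 0.982 to 0.989 between genotypes, so the WT libraries differed from each other about as much as they differed from TG. In a principal component analysis of the 4 libraries, the first component (47.7% of the variance) separated TG (22.6 and 26.9) from WT (-15.7 and -33.8), and the second (34.8%) separated the WT libraries (32.5 and -23.3). Among the untreated libraries, TG untreated 1 stood apart, with correlations of 0.973 and 0.975 to the other TG libraries, which correlated at 0.993. Xist, expressed from the inactive X chromosome, was at 307 to 739 CPM (the count scaled to library size) in the 4 DSS libraries and at most 0.417 in the 6 untreated ones, while Y-linked Kdm5d was at 0 in every DSS library and at 26.6 to 44.2 CPM in the untreated ones. Genotypes were therefore compared within 1 sex pattern, whereas sex and DSS treatment cannot be told apart in any comparison of DSS with untreated tissue.

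Epithelial markers dominated the tissue. Epcam, an epithelial adhesion molecule, was at 1985 and 1684 CPM in WT and 1929 and 1889 in TG, and Krt8, a keratin of simple epithelia, was at 6899 and 5432 in WT and 6386 and 7608 in TG. Colonocyte markers summed to 18050 to 32638 CPM, against 375 to 609 CPM for markers of small intestinal enterocytes. Smooth muscle actin Acta2 reached at most 0.996 CPM and the endothelial cadherin Cdh5 at most 0.108 CPM. Summed markers were at 119 to 139 CPM for smooth muscle, where Mylk alone was at 81.8 to 115. Sums were 54.1 to 57.4 CPM for fibroblasts, 6.85 to 7.86 for endothelium and 356 to 501 for monocytes and macrophages. Markers of tissue below the epithelium were thus scarce beside those of colonocytes. In bulk tissue, fewer cells of a type and less RNA per cell cannot be told apart.

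The transgene was read as a human ITGB6 entry in the deposited tables. Human ITGB6 was at 2453 and 2201 CPM in the TG DSS libraries and at 0.709 and 1.13 CPM in the WT DSS libraries, so both genotype labels were borne out. Pooled counts were 79447 in TG and 33 in WT, a 2499-fold ratio with an exact 95% interval of 1779 to 3631 that covers counting error only. The edgeR quasi-likelihood test gave a log2 fold change of 11.28 ± 0.23 (SE, adjusted p = 2.39e-09, n = 2 libraries a group). In untreated TG tissue the entry was at 3632, 3853 and 3913 CPM, above both TG DSS libraries. Mouse Itgb6 was at 38.3 and 28.8 CPM in WT and at 28.0 and 30.2 in TG after DSS, and the groups overlapped. Its log2 fold change was -0.21 ± 0.17 (edgeR adjusted p = 0.693), and without WT DSS 1 it was 0.01. The human entry stood 80.0 times above the mouse gene in TG tissue on the CPM scale, for reference lengths of 4693 and 4788 bases.

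**Figure D1:**
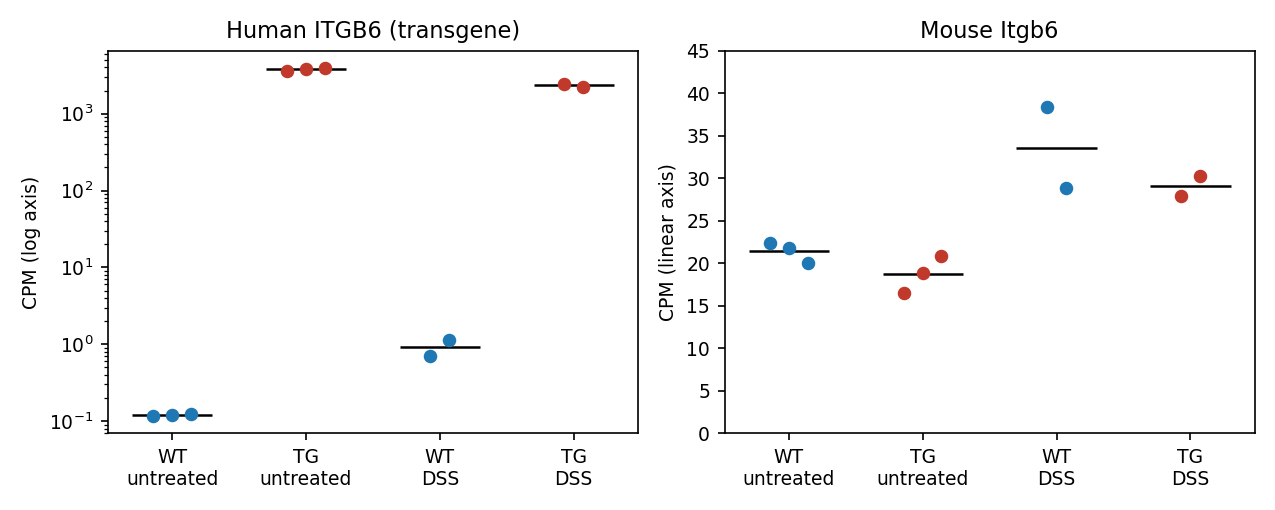
CPM of human ITGB6 (left, log axis) and mouse Itgb6 (right, linear axis) in all 10 libraries, with points for libraries and bars for group means. The TG DSS libraries sit at 2453 and 2201 for the human entry and between 28.0 and 30.2 for the mouse gene.

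After DSS, 26 of 14072 genes differed between TG and WT at an adjusted p under 0.05 (0.185% of genes tested), 25 higher in TG (0.178%) and 1 lower (0.00711%). The higher group held the transgene, 7 genes of the circadian clock, 3 globins, the secretory lineage factor Atoh1 and 13 others, mostly enzymes and transporters. In each of the 26 both TG libraries lay on the same side of both WT libraries, which was also the case for 22% of all genes on the higher side and 21.2% on the lower side. At an unadjusted p under 0.05, 7.2% of genes were higher and 4.02% lower. The median log2 fold change of all genes tested was -0.01. Leaving out a DSS library leaves only 1 in its group. Counts of calls moved strongly when single libraries were left out. The number was 4 without TG DSS 1, 7 without TG DSS 2, 134 without WT DSS 1 (85 higher and 49 lower) and 20 without WT DSS 2 (9 higher and 11 lower). It was 145 (114 higher and 31 lower), 8 and 13 without TG untreated 1, 2 and 3, and 7, 10 and 8 without WT untreated 1, 2 and 3. Only human ITGB6, Tef and Dbp were called in all 10 of these fits. The 4 DSS libraries fitted alone gave 8 calls, and DESeq2 gave 258, among them all 26.

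**Figure D2:**
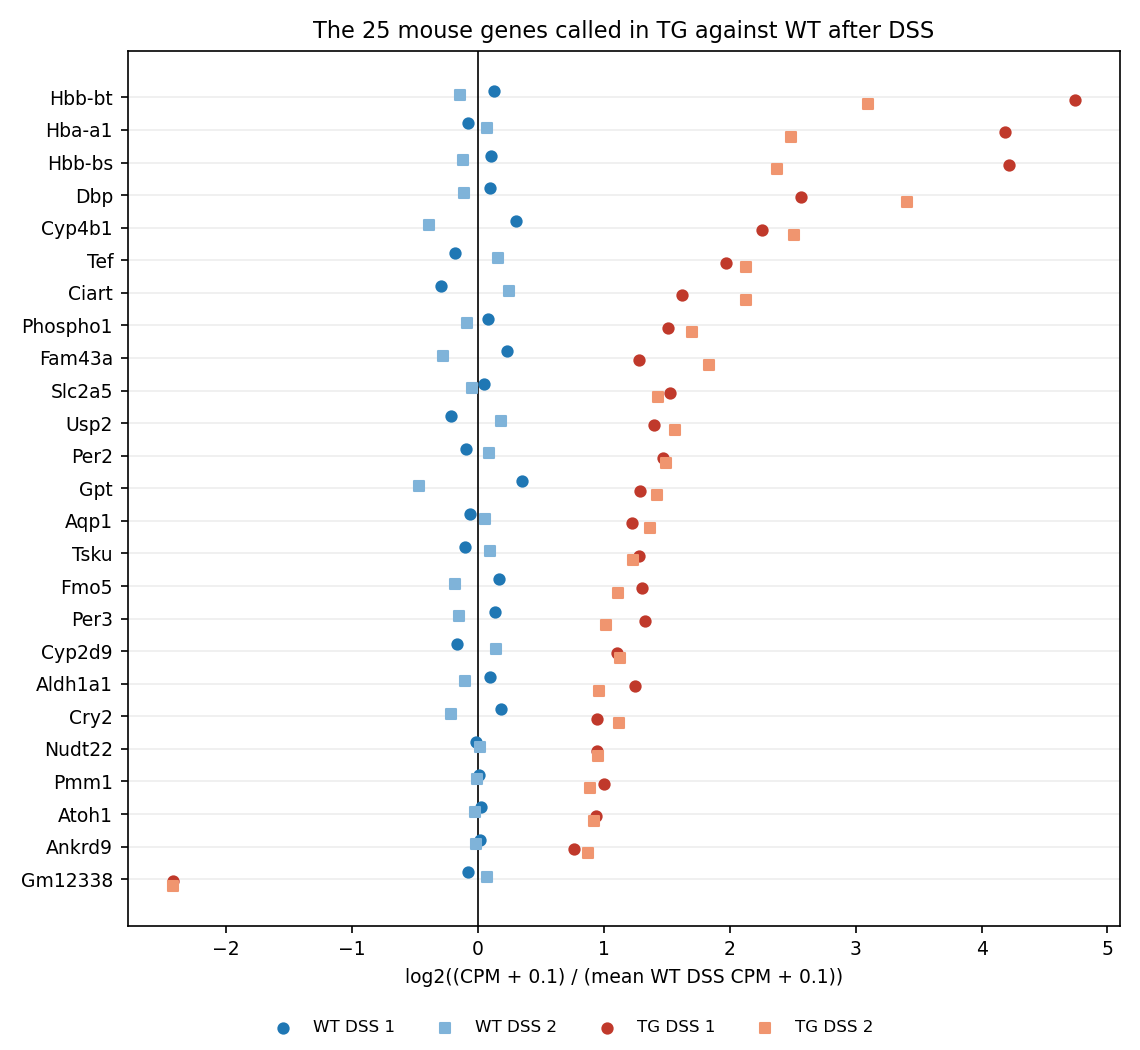
Levels of the 25 mouse genes called in TG against WT after DSS, as log2 of CPM + 0.1 relative to the WT DSS mean, with 1 point per library. TG points lie right of both WT points for 24 genes and left of them for Gm12338, and the globins have the widest gap between the TG libraries.

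Genes of the circadian clock made up 7 of the 26 calls. Of 18 clock genes tested, 7 were higher in TG after DSS and none was lower at an adjusted p under 0.05. Over all genes tested, 0.178% were higher and 0.00711% lower. The median log2 fold change of the list was 0.83, against -0.01 for all genes. This list was chosen with earlier results of these data known, so its share of calls is descriptive only. The 7 were the output factors Dbp and Tef, the repressors Per2, Per3, Cry2 and Ciart, and the deubiquitinase Usp2, a rhythmic gene.

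Tef, a D-box binding activator, was at 20.3 and 25.8 CPM in WT and 90.7 and 101 in TG, a log2 fold change of 2.06 ± 0.15 (edgeR adjusted p = 0.000348). Dbp, its close relative, was at 4.25 and 3.67 CPM in WT and 24 and 43.0 in TG, with the largest log2 fold change of the clock genes tested at 3.08 ± 0.30 (edgeR adjusted p = 0.0032). Both stayed called without any 1 of the 10 libraries. For Tef and Dbp the lowest TG library was over 3 times the highest WT library. Usp2 was at 16.7 and 22.1 CPM in WT and 51.3 and 57.5 in TG (log2 fold change 1.49 ± 0.15, edgeR adjusted p = 0.00459), and without TG DSS 2 its adjusted p was 0.0514.

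The period and cryptochrome genes encode the repressors of the loop. Per2 was at 18.4 and 21.0 CPM in WT and 54.7 and 55.4 in TG (log2 fold change 1.48 ± 0.22). Per3 was at 13.1 and 10.7 CPM in WT and 30.1 and 24.2 in TG (1.19 ± 0.17 on the log2 scale). Cry2 was at 14.4 and 10.9 CPM in WT and 24.5 and 27.6 in TG (1.04 ± 0.15 on the log2 scale). Ciart, which represses CLOCK and BMAL1, was at 1.12 and 1.67 CPM in WT and 4.51 and 6.44 in TG (1.96 ± 0.29 on the log2 scale). Each of these 4 had an edgeR adjusted p of 0.0374. Both TG libraries were above both WT libraries in each, as in 22% of all genes tested. Unlike those of Tef and Dbp, these calls were lost when single libraries were left out. Per3 and Cry2 lost theirs without TG DSS 1, TG DSS 2, WT DSS 2, TG untreated 2 or 3 or any WT untreated library, at adjusted p of 0.0585 to 0.258 for Per3 and 0.0676 to 0.247 for Cry2. Per2 lost its call without any of the 4 DSS libraries, TG untreated 2 or 3 or WT untreated 2 (0.0593 to 0.231). Ciart kept its call only without TG untreated 1, and its other adjusted p values were 0.0583 to 0.231. As a count, 2 to 5 clock genes were called without any 1 library other than TG untreated 1, without which 9 were higher and 2 lower: 3 without TG DSS 1, 2 without TG DSS 2, 5 without WT DSS 1, 3 without WT DSS 2, 3 without TG untreated 2 or 3, and 4, 3 and 4 without WT untreated 1, 2 and 3. Total count scaling and the 4 DSS libraries alone each called 3.

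The activators had log2 fold changes below 0 that did not pass the edgeR test with all 10 libraries. Arntl was at 51.2 and 39.6 CPM in WT and 25.2 and 15.2 in TG (log2 fold change -1.17 ± 0.23, edgeR adjusted p = 0.101), and Npas2 at 38.6 and 26.5 CPM in WT and 19.1 and 10 in TG (-1.16 ± 0.31, edgeR adjusted p = 0.2). Clock was at 97.4 and 109 CPM in WT and 76.3 and 64.9 in TG (edgeR adjusted p = 0.643). None of the 3 overlapped between genotypes, but 21.2% of all genes tested also had both TG libraries below both WT libraries. Without TG untreated 1, where Clock was at 30.8 CPM against 92.2 and 90.1 in the other TG untreated libraries, the edgeR adjusted p was 0.0472 for Clock, 0.0468 for Arntl and 0.0974 for Npas2. DESeq2 called Arntl and Npas2 with all libraries (adjusted p = 0.00139 and 0.0291). Per1 was at 27.0 and 32.0 CPM in WT and 61.8 and 61.4 in TG (log2 fold change 1.06 ± 0.19, edgeR adjusted p = 0.0822, or 0.0334 without TG untreated 1). Time of tissue collection is not given in the labels, and its part in these values was not tested. Arntl, Npas2 and Per1 were named after their values were seen.

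For the clock genes that were called, the 250 bases before their RefSeq start sites (build GRCm38.p6) were searched on both strands. The motifs were the E-box CACGTG and the D-box TTATGTAA or TTACGTAA. The promoter table held 6 of the 7 genes, in 7 windows. An E-box lay in 3 windows, of 2 genes, and a D-box in 1, against 6.02% and 0.931% of all 32851 windows of this length. The genes were picked by their calls in these data and both Tef windows are among the 3, so these shares are descriptive only. The windows with a match are printed 5′ to 3′ on the gene's strand, with the matching motif in capitals.
Ciart, chr3:95882229-95882478, minus strand: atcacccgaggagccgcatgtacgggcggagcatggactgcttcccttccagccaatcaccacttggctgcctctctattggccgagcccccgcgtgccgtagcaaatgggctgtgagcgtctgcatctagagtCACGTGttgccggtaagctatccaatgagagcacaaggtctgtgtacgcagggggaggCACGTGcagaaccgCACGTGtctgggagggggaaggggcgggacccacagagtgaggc
Per3, chr4:151044666-151044915, minus strand: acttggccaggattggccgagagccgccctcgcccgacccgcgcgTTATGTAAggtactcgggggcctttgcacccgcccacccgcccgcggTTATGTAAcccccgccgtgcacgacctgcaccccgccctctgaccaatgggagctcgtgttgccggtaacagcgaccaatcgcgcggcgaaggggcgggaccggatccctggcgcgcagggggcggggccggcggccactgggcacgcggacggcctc
Tef, first start site, chr15:81802423-81802672, plus strand: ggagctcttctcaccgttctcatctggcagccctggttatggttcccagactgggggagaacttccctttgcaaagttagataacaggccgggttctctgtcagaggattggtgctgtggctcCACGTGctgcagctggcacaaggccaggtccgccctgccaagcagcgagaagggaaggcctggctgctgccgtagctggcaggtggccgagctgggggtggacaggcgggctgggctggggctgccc
Tef, second start site, chr15:81811164-81811413, plus strand: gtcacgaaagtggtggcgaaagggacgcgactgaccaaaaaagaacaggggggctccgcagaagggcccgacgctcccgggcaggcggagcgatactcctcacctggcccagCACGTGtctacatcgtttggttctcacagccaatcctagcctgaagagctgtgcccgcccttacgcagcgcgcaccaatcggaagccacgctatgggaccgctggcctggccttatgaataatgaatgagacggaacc
Ciart had 3 E-boxes, 116, 58 and 44 bases before its start, and Per3 had 2 D-boxes, 205 and 158 bases before its start. Each Tef window had 1 E-box, 127 and 138 bases before the start. A match describes the letters only and not binding.

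**Figure D3:**
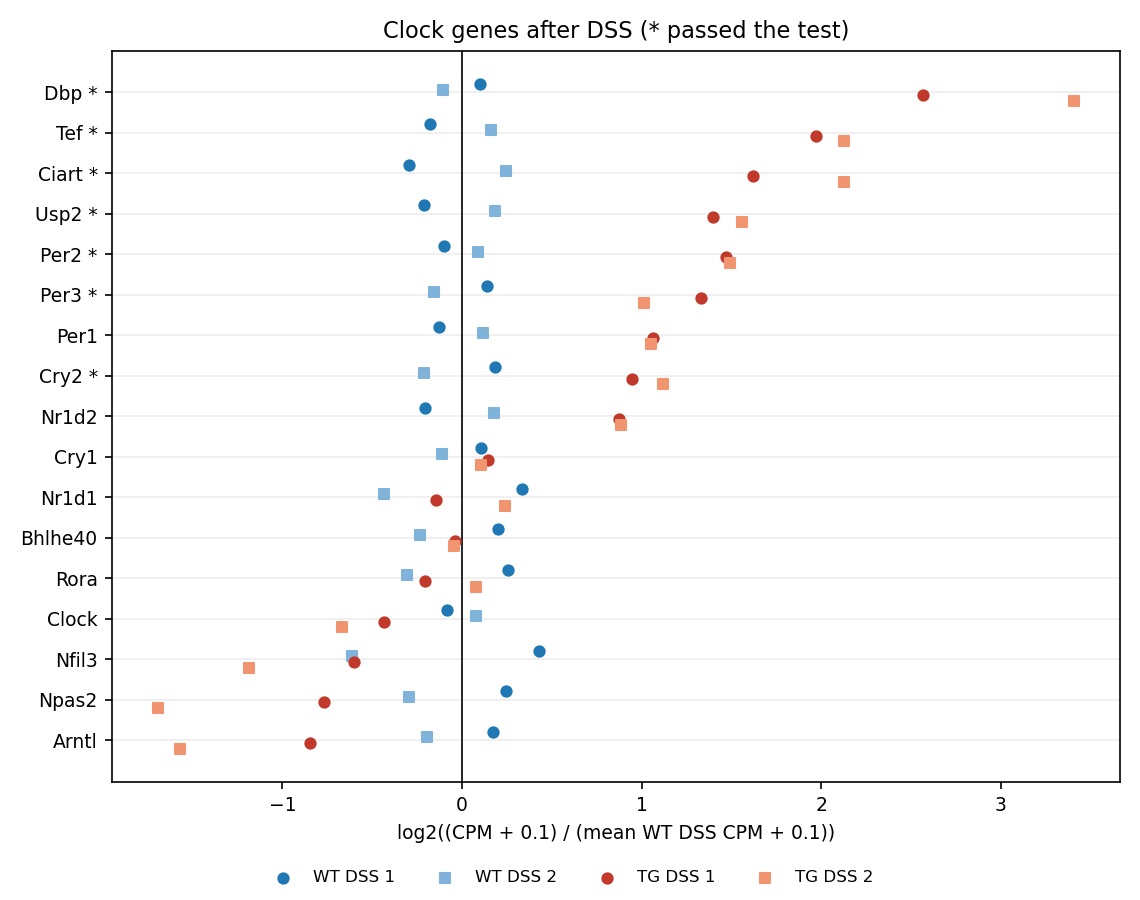
Of the clock genes tested, 17 are shown as log2 of CPM + 0.1 relative to the WT DSS mean, with 1 point per library and a star for genes at an adjusted p under 0.05. The 7 starred genes have both TG points to the right of WT, while both TG points of Arntl and Npas2 lie to the left.

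Globin transcripts, which come from red blood cells and their precursors, were higher in TG after DSS. Of 5 erythroid markers tested, 3 were called higher and none lower, against 0.178% and 0.00711% of all genes tested. Hbb-bs, an adult beta globin, was at 4.43 and 3.78 CPM in WT and 78.1 and 21.8 in TG (log2 fold change 3.60 ± 0.55, edgeR adjusted p = 0.0374). Hbb-bt was at 0.414 and 0.324 CPM in WT and 12.4 and 3.92 in TG (4.45 ± 0.62 on the log2 scale, edgeR adjusted p = 0.0374), and Hba-a1, an alpha globin, at 3.84 and 4.27 CPM in WT and 75.7 and 23.1 in TG (3.60 ± 0.57 on the log2 scale, edgeR adjusted p = 0.0442). TG DSS 1 was over 3 times TG DSS 2 in all 3. The near-identical Hba-a2, at 3.31 and 0.918 CPM in WT and 34.4 and 12.2 in TG, missed the threshold (edgeR adjusted p = 0.069), and reads shared between globin copies make the split uncertain. Alas2, the first enzyme of erythroid haem synthesis, named after its values were seen, was at 0.591 and 0.162 CPM in WT and 2.58 and 0.644 in TG (edgeR adjusted p = 0.337). In untreated tissue Hbb-bs was higher than in WT DSS tissue in all 6 libraries, at 130, 104 and 75.0 CPM in WT and 216, 166 and 253 in TG. Without TG DSS 1, either WT DSS library, TG untreated 2 or 3 or any WT untreated library these calls were lost, at adjusted p of 0.0520 to 0.142 for Hbb-bt, 0.0613 to 0.176 for Hbb-bs and 0.0721 to 0.181 for Hba-a1. Summed over the list, erythroid markers were at 12.6 and 9.72 CPM in WT and 203 and 61.8 in TG. The part of blood left in the tissue in these values was not tested.

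The other 13 genes called higher are described singly, since no list chosen here holds most of them. Tsku, a secreted leucine-rich protein, was at 39.6 and 45.5 CPM in WT and 103 and 100.2 in TG (log2 fold change 1.26 ± 0.12, edgeR adjusted p = 0.0032), and without TG DSS 1 its adjusted p was 0.0509. Phospho1, a phosphatase acting on phosphocholine, was at 18 and 16 CPM in WT and 48.6 and 55.3 in TG (1.61 ± 0.20 on the log2 scale, edgeR adjusted p = 0.0213). It lost its call without either TG DSS library, WT DSS 2 or WT untreated 1 (adjusted p = 0.0673 to 0.143). Among transporters, Slc2a5, the fructose carrier, was at 2.54 and 2.38 CPM in WT and 7.27 and 6.79 in TG (1.51 ± 0.21 on the log2 scale, edgeR adjusted p = 0.0342). Aqp1, a water channel, was at 47.4 and 51.6 CPM in WT and 116 and 128 in TG (1.30 ± 0.18 on the log2 scale, edgeR adjusted p = 0.0342). In both transporters the TG libraries were over 2 times the WT libraries.

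Cyp4b1, a cytochrome P450, was at 3.72 and 2.27 CPM in WT and 14.6 and 17.6 in TG, with a log2 fold change of 2.43 ± 0.36 (edgeR adjusted p = 0.0374). Fmo5, a flavin monooxygenase, was at 27.3 and 21.4 CPM in WT and 60.1 and 52.7 in TG (log2 fold change 1.21 ± 0.17), and Cyp2d9, a P450 of a family with near-identical copies, at 10.9 and 13.6 in WT and 26.4 and 26.9 in TG (1.12 ± 0.17). Aldh1a1, a retinaldehyde dehydrogenase, was at 117 and 102 CPM in WT and 259 and 212 in TG (1.11 ± 0.17 on the log2 scale), and Gpt, the alanine aminotransferase, at 53.2 and 30.2 in WT and 102 and 112 in TG (1.36 ± 0.21). Other rises that passed were those of Fam43a (13.1 and 9.13 CPM in WT, 27.0 and 39.9 in TG), Nudt22 (17.0 and 17.3 in WT, 33.0 and 33.3 in TG), the phosphomannomutase Pmm1 (30.7 and 30.4 in WT, 61.2 and 56.8 in TG) and Ankrd9 (19.3 and 18.9 in WT, 32.4 and 35.1 in TG). Their edgeR adjusted p values ran from 0.0374 to 0.043. Nudt22, Pmm1, Ankrd9, Aldh1a1, Cry2 and Gm12338 were named after their values were seen.

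Calls among these genes were also lost when single libraries were left out, untreated ones included, and all of them held without TG untreated 1. Fmo5 and Aldh1a1 lost theirs without TG DSS 1, TG DSS 2, WT DSS 2, TG untreated 2 or any WT untreated library, at adjusted p of 0.0721 to 0.226 and 0.0728 to 0.276. Slc2a5 and Fam43a lost theirs without those libraries or TG untreated 3 (0.0585 to 0.177 and 0.0676 to 0.247). Cyp4b1 lost its call without TG DSS 1, TG DSS 2, WT DSS 2, TG untreated 2 or 3 or WT untreated 1 or 3 (0.0676 to 0.231), and Gpt without TG DSS 1 or 2, TG untreated 2 or 3 or any WT untreated library (0.0766 to 0.247). Aqp1 lost its call without any DSS library or WT untreated 1 or 3 (0.0503 to 0.222). Nudt22 and Pmm1 lost theirs without any DSS library, TG untreated 2 or any WT untreated library (0.0520 to 0.233 and 0.0586 to 0.295). Cyp2d9 and Ankrd9 lost theirs without any 1 of the 9 libraries other than TG untreated 1, at 0.0586 to 0.252 and 0.0520 to 0.308.

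Gm12338, a transcribed pseudogene on chromosome 11 (75599634 to 75600231, GRCm38.p6), was the 1 gene called lower. It had 22 and 27 counts in WT and 3 and 3 in TG, a 7.87-fold ratio of WT to TG with an exact 95% counting interval of 3.37 to 22.5 (edgeR adjusted p = 0.0129). Without TG DSS 1 or TG DSS 2 the adjusted p was 0.132 or 0.143. Reads of a pseudogene can be shared with its parent gene, so its level is uncertain. After DSS, Gm12338 was at 1.30 and 1.46 CPM in WT and 0.176 and 0.176 in TG. In untreated tissue it was at 14.9, 19.6 and 17.3 CPM in WT and 18.4, 16.8 and 16.3 in TG. DSS and sex cannot be told apart in that gap.

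The wider gene lists of colonocytes showed the same side with few calls. Colonocyte markers had 19 members tested and none called, with a median log2 fold change of 0.41. At an unadjusted p under 0.05, 8 were higher and none lower, against 7.2% and 4.02% of all genes tested. Car1, the carbonic anhydrase of the colonic surface, was at 5189 and 2886 CPM in WT and 8481 and 6392 in TG (edgeR adjusted p = 0.341). Car4 was at 309 and 381 CPM in WT and 637 and 653 in TG (edgeR adjusted p = 0.0869). WT DSS 2 was the lowest of the 4 libraries for Car1, Car2 and Cyp2c55. The list's median was 0.74 without WT DSS 1 and 0.22 without WT DSS 2, and edgeR called 5 members without WT DSS 1 and 2 without TG untreated 1. DESeq2 called 3.

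Genes of fatty acid oxidation and ketogenesis had 26 members tested, none called, 15 higher and 1 lower at an unadjusted p under 0.05, and a median of 0.40. Over all genes tested, 7.2% were higher and 4.02% lower at that threshold. Acaa1b, a peroxisomal thiolase, was at 13.1 and 11.3 CPM in WT and 34.1 and 26.7 in TG (edgeR adjusted p = 0.0586), and Angptl4, a lipase inhibitor induced by fasting, at 1.06 and 2.86 in WT and 8.14 and 11.9 in TG (edgeR adjusted p = 0.0608). Of 17 genes of aldosterone-sensitive sodium absorption, none was called and 10 were higher at an unadjusted p under 0.05 (median 0.35). Sgk1, a kinase that raises sodium channel activity, was at 72.9 and 61.8 CPM in WT and 189 and 149 in TG (edgeR adjusted p = 0.126), and Scnn1b, a subunit of that channel, at 7.39 and 6.59 in WT and 15.5 and 14.6 in TG (edgeR adjusted p = 0.187). Of 26 glucuronidation, sulfation and glutathione transfer genes, none was called and 8 were higher at an unadjusted p under 0.05 (median 0.30). DESeq2 called 3 genes of each of these 3 lists. Without WT DSS 1 the medians were 0.55, 0.52 and 0.52 in the same order, and without WT DSS 2 they were 0.24, 0.22 and 0.21. Car4, Acaa1b, Angptl4, Sgk1 and Scnn1b were named after their values were seen. Aqp4, a second water channel, went the other way at 884 and 776 CPM in WT and 360 and 406 in TG (log2 fold change -1.12 ± 0.32, edgeR adjusted p = 0.221).

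Goblet and enteroendocrine genes were on the higher side in TG. Atoh1, the factor that sets the secretory fate, was at 38.8 and 37.6 CPM in WT and 73.3 and 72.4 in TG (log2 fold change 0.93 ± 0.14, edgeR adjusted p = 0.0374), the 1 call among 20 goblet cell genes. That call was lost without TG DSS 1, TG DSS 2, WT DSS 2, TG untreated 2 or any WT untreated library (adjusted p = 0.0683 to 0.231). Of the goblet list, 11 were higher and none lower at an unadjusted p under 0.05, against 7.2% and 4.02% of all genes tested. The goblet median was 0.69, or 0.39 without WT DSS 2 and 0.97 without WT DSS 1. In untreated tissue the goblet median was also above 0, at 0.66. Muc2, the gel-forming mucin, was at 10064 and 6131 CPM in WT and 13120 and 12618 in TG (edgeR adjusted p = 0.633). Spdef and Foxa3, factors of goblet maturation named after their values were seen, were at 82.4 and 75.6 and at 28.9 and 27.4 CPM in WT, and at 136 and 164 and at 47.0 and 47.0 in TG (edgeR adjusted p = 0.219 and 0.212). Enteroendocrine genes had 20 members tested and none called, with 7 higher at an unadjusted p under 0.05 (median 0.53, or 0.33 without WT DSS 2 and 0.94 without WT DSS 1), and DESeq2 called 3. Chga, a granule protein, was at 96.6 and 71.7 CPM in WT and 148 and 145 in TG (edgeR adjusted p = 0.175). Other secretory lists moved less evenly. Tuft cell genes had a median of 0.21, and mucins and trefoil factors -0.23, with 2 above 0 and 5 below. The 6 Paneth markers tested had a median of 0.43, but the list summed to 348 and 129 CPM in WT and 288 and 120 in TG.

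Interferon genes were on the lower side in TG, with none called. DESeq2 called 5 genes of the type I list and none of the interferon gamma list. Of 33 type I interferon stimulated genes, all had a log2 fold change below 0, with a median of -0.84. At an unadjusted p under 0.05, 20 of them were lower, against 4.02% of all genes tested. The interferon lists too were chosen with earlier results of these data known, so such counts are descriptive only. In untreated tissue the type I list was on the higher side in TG, with a median of 1.22. Isg15, a ubiquitin-like modifier named after its values were seen, was at 95 and 47.4 CPM in WT and 37.6 and 36.5 in TG (log2 fold change -0.94 ± 0.28, edgeR adjusted p = 0.247). Bst2, tetherin, was at 63.2 and 47.5 CPM in WT and 22 and 31.3 in TG (-1.05 ± 0.21, edgeR adjusted p = 0.1). WT DSS 1 was the highest of the 4 DSS libraries in both. Without WT DSS 1 the list's median was -0.25, and without WT DSS 2 it was -1.24 with 5 members called lower. Of 21 interferon gamma induced GTPases and targets, none was called, 10 were lower at an unadjusted p under 0.05 and the median was -0.99, or -0.41 without WT DSS 1. Iigp1 and Tgtp1, GTPases that act on pathogen vacuoles and were named after their values were seen, were at 178 and 105 and at 119 and 75.9 CPM in WT, and at 49.3 and 36.0 and at 27.7 and 22 in TG (edgeR adjusted p = 0.342 and 0.258).

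Antigen presentation and leukocyte genes gave no calls. Cd74, the invariant chain of MHC class II, was at 808 and 670 CPM in WT and 328 and 360 in TG (log2 fold change -1.10 ± 0.82, edgeR adjusted p = 0.662), and H2-Ab1 was at 191 and 142 in WT and 85.9 and 95.9 in TG (edgeR adjusted p = 0.688). The SE of Cd74 reflects the untreated libraries too, where it ranged from 30.3 to 877 CPM. Ptprc, the pan-leukocyte marker CD45, was at 22.4 and 16.1 CPM in WT and 16.6 and 10.9 in TG (edgeR adjusted p = 0.849). Ly6g, of the neutrophil list, was at 103 and 120 CPM in WT and 159 and 235 in TG (edgeR adjusted p = 0.205). Cxcr2, a neutrophil chemokine receptor, was at 9.04 and 8.21 in WT and 8.56 and 5.39 in TG (edgeR adjusted p = 0.658). Ly6g made up most of the summed list, at 165 and 171 CPM in WT and 204 and 274 in TG. Most other members went the other way. Over 12 neutrophil genes the median was -0.51, with 2 members above 0 and 10 below, 1 gene called by DESeq2 and 1 higher and 1 lower at an unadjusted p under 0.05. The median was -0.26 without WT DSS 1 and -0.80 without WT DSS 2.

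Proliferation genes depended on 1 WT library. Of 37 DNA replication and mitosis genes none was called, by edgeR or DESeq2. At an unadjusted p under 0.05, 2 were lower, a share near the 4.02% of all genes tested. The median was -0.44, but 0.30 without WT DSS 2 and -0.96 without WT DSS 1. Mki67, a marker of cycling cells, was at 236 and 559 CPM in WT and 210 and 176 in TG (edgeR adjusted p = 0.515), and Top2a, a topoisomerase of dividing cells, at 147 and 353 in WT and 143 and 150 in TG (edgeR adjusted p = 0.535). WT DSS 2 was the high library in both and also the low library for Car1, Car2 and Cyp2c55.

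**Figure D4:**
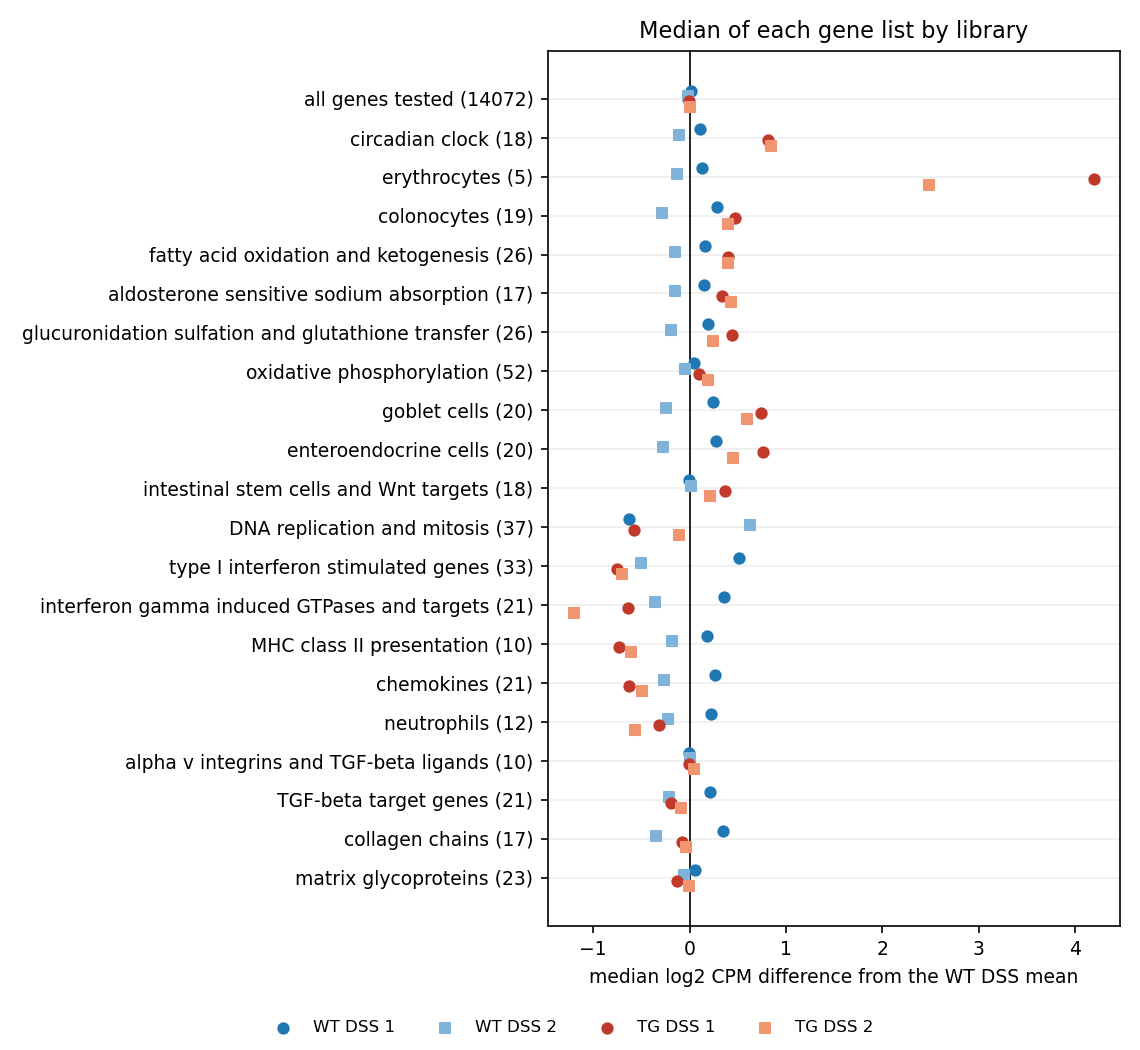
Median log2 CPM difference from the WT DSS mean for 20 gene lists and all genes tested, with the number of genes in brackets and 1 point per library. TG points lie apart from both WT points for most of the lists, interferon lists included, with the widest gaps for erythroid and clock genes. WT DSS 1 and 2 are spread widely for interferon and DNA replication genes, and the TG points of the latter lie between them.

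Genes of the integrin and TGF-beta pathway and of the matrix, the products most directly tied to the transgene and to fibrosis, gave no calls. Itgav, the partner subunit of ITGB6, was at 39.2 and 38.5 CPM in WT and 37.6 and 36.7 in TG (log2 fold change -0.07 ± 0.19, edgeR adjusted p = 0.922). Tgfb1 was at 11.1 and 11.5 CPM in WT and 13.7 and 11.4 in TG (0.15 ± 0.37, edgeR adjusted p = 0.911). Over 10 alpha v integrin and TGF-beta ligand genes the median was 0.03, over 21 receptors and SMADs -0.08 and over 21 TGF-beta targets -0.17, with 0 called by edgeR or DESeq2 and 0, 1 and 1 lower and none higher at an unadjusted p under 0.05. The target median was 0.036 without WT DSS 1 and -0.23 without WT DSS 2, the receptor median -0.027 without TG DSS 2 and -0.14 without WT DSS 2, and the alpha v median ran from -0.072 without TG untreated 2 to 0.029 without TG untreated 1. It was also below 0 without TG DSS 1, TG DSS 2, WT DSS 2 or TG untreated 3. Tgfbr2, the ligand-binding receptor, was at 84.5 and 83.6 CPM in WT and 95.2 and 102 in TG (edgeR adjusted p = 0.459), and Smad4 at 188 and 179 in WT and 136 and 171 in TG (edgeR adjusted p = 0.541). Id1, a target of BMP and TGF-beta signals, was at 332 and 246 CPM in WT and 225 and 199 in TG (edgeR adjusted p = 0.401).

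Collagen transcripts were scarce in these libraries, at 36.7 to 54.4 CPM summed over the list of collagen chains. Col1a1, a chain of fibrillar collagen, was at 2.60 and 3.29 CPM in WT and 2.29 and 2.75 in TG (log2 fold change -0.23 ± 0.50, edgeR adjusted p = 0.899). Col3a1 was at 7.21 and 8.10 CPM in WT and 7.27 and 7.44 in TG (-0.06 ± 0.52, edgeR adjusted p = 0.979). Fn1, fibronectin, was at 2.19 and 2.32 CPM in WT and 1.64 and 1.29 in TG (-0.62 ± 0.46, edgeR adjusted p = 0.663). Of 17 collagen chains and 23 matrix glycoproteins none was called by edgeR or DESeq2, with 1 and 1 lower and 0 and 2 higher at an unadjusted p under 0.05, and the medians were -0.07 and -0.02. The median of the collagen chains was 0.19 without WT DSS 1 and -0.32 without WT DSS 2, and that of the glycoproteins 0.071 without WT DSS 1 and -0.19 without TG DSS 2. Lamb3, an epithelial laminin chain, was at 230 and 179 CPM in WT and 242 and 307 in TG (edgeR adjusted p = 0.337), and Mmp15, a membrane matrix protease, at 233 and 169 in WT and 303 and 343 in TG (edgeR adjusted p = 0.186). Simulated data with these library sizes recovered 46.5% of 2-fold and 84.8% of 4-fold changes, in genes drawn from all those tested. Genes were simulated independently and without an outlying library, so recovery in the real libraries may differ. Recovery was not worked out for scarce genes with a large SE, such as Col1a1, Col3a1 and Fn1. Differences of these sizes in matrix genes may therefore have been missed.

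The genotype effect after DSS was then set against that in untreated tissue, where 520 genes (3.7%) were called, 318 higher in TG (2.26%) and 202 lower (1.44%). The difference of the 2 effects was called for 119 genes (0.846%), 74 with a higher effect after DSS (0.526%) and 45 with a lower one (0.32%). Of the 26 genes called after DSS, 19 were among these, and 17 had the opposite sign in untreated tissue. The DSS effect is itself part of the difference, so genes picked by their DSS call tend to be called in it. The count of 19 is therefore not independent of the DSS calls. In untreated tissue 2 of the 26 were called in the same direction and 8 in the opposite one. Cyp4b1 was at 64.0, 33.2 and 56.9 CPM in untreated WT and 4.47, 6.79 and 6.89 in untreated TG, opposite to DSS (difference of effects 5.52 ± 0.46 on the log2 scale, edgeR adjusted p = 0.000879). Tef was at 200.3, 198 and 193 CPM in untreated WT and 148, 136 and 124 in untreated TG (difference 2.59 ± 0.18, edgeR adjusted p = 0.000227). Mt2, a metallothionein, was at 113, 109 and 117 CPM in untreated WT and 18.5, 20.1 and 13.3 in untreated TG, and after DSS at 52.7 and 49.3 in WT and 77.1 and 80.7 in TG (difference 3.34 ± 0.22, edgeR adjusted p = 0.000227). Sstr1, a somatostatin receptor, was at 94.3, 104 and 115 CPM in untreated WT and 31.7, 27.0 and 30.3 in untreated TG, and after DSS at 11.8 and 7.02 in WT and 18.7 and 22 in TG (difference 2.93 ± 0.28, edgeR adjusted p = 0.00161). Fn1 was at 5.34, 3.75 and 7.63 CPM in untreated WT and 45.8, 23.9 and 46.6 in untreated TG (difference -3.42 ± 0.55, edgeR adjusted p = 0.0238). Of the 33 type I interferon stimulated genes, 16 were called with a lower effect after DSS, against 0.32% of all genes. Their median difference was -2.05. That list was chosen with earlier results of these data known, so its count is descriptive only. The untreated libraries also differ from the DSS libraries in Xist and Kdm5d, so DSS and sex cannot be told apart in these differences. The count of 119 was 24 and 34 without TG DSS 1 and 2, 424 without WT DSS 1, 385, 56 and 41 without TG untreated 1, 2 and 3, and 35, 63 and 41 without WT untreated 1, 2 and 3. Without WT DSS 2 it was 101 (37 higher and 64 lower).

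**Figure D5:**
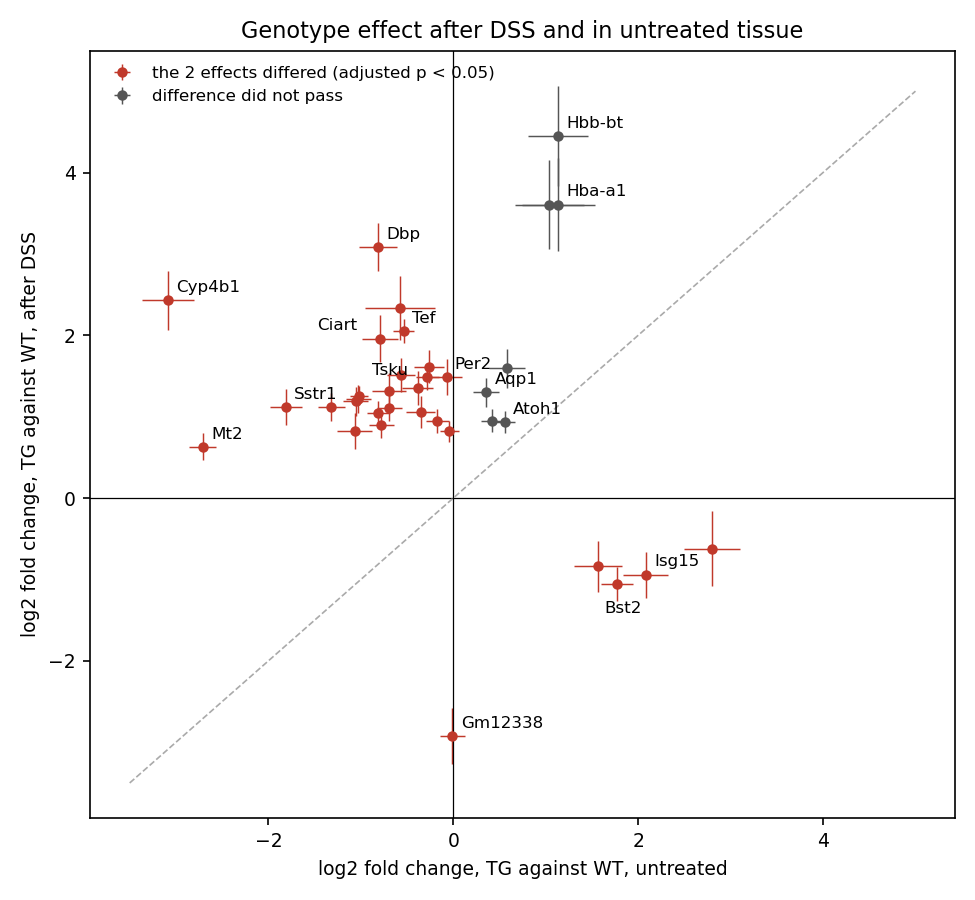
Log2 fold change of TG against WT after DSS (vertical axis) against that in untreated tissue (horizontal axis) for mouse genes named in the text and called in either the DSS comparison or the difference of effects, with bars for SE and a dashed line of equal effects. Genes in red, whose 2 effects differed, lie off the line, and Cyp4b1, Dbp, Mt2 and Tsku are above 0 after DSS and below 0 untreated.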

How the data were processed

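Poly-A RNA from mouse intestinal tissue was sequenced on a BGISEQ-500 in 10 libraries, per the labels' protocols. The submitters' processing notes name the mm10 build and the tools RSEM (1.2.12), HISAT2 (2.0.4) and Bowtie2 (2.2.5). The deposited tables hold, per the file headers, an expected count and an FPKM for each gene, 1 table per library, and the strand setting is not given in the sources used here. Tables were joined on gene identifier, absent genes were set to 0 (19456 genes in at least 1 library), and expected counts were rounded.

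Genes passing edgeR's filter (count minimum 10, total minimum 15) were fitted with edgeR 4.0.16 (quasi-likelihood F-test, TMM scaling) on all 10 libraries with 1 mean for each of the 4 groups (6 residual degrees of freedom), and p-values were adjusted by Benjamini-Hochberg over all 14072 genes. CPM are TMM-scaled. Errors of fold changes are SE. The untreated libraries were included because the 4 DSS libraries alone leave 2 residual degrees of freedom. No set test was run. On simulated counts for this comparison (13864 genes, 200 changed), 5.80% of calls were false. Each gene was drawn independently with the same mean in all 4 groups, apart from the 200 changed in TG DSS. The simulation had no treatment difference and no outlying library, so its rates may not hold for the real libraries.

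The members and the 63 gene lists were chosen with earlier results of these data known. Named genes were human ITGB6 and mouse Itgb6, the 15 largest called rises and falls at a mean of at least 1 CPM without overlap, up to 4 called and 3 abundant members of the lists described, Itgav, Tgfb1, Fn1, Col1a1, Col3a1, Acta2, Krt8 and Ptprc, and up to 10 genes called in the difference of effects. Others are marked where they occur.

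Alternatives were DESeq2 1.42.0, other scalings and filters, limma 3.58.1 on log2 FPKM with pseudocounts of 1 and 0.1, the DSS libraries alone, a replicate block, robust estimation and leaving out each library. Promoter sequences came from RefSeq. The labels of same-numbered WT and TG libraries shared only a number, so the libraries were not treated as pairs.
A few list members are not reported here.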

Additional observations from a re-analysis of the deposited data

Results flagged for a closer look

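The genotype effect after DSS differed from that in untreated tissue, by edgeR's test of the difference at an adjusted p under 0.05, for 30 of the genes named in the text. Over all genes tested, 119 (0.846%) were called. Many of the 30 were named because they were called in this difference or after DSS, which is part of it. The count of 30 therefore largely follows from the naming. Values are log2 differences of the 2 effects. Among clock genes the genotype effect was higher after DSS for Tef (2.59), Dbp (3.90), Usp2 (1.77), Per3 (2.25), Per2 (1.56), Cry2 (1.86), Ciart (2.75) and Per1 (1.41). Among enzymes, transporters and other epithelial genes it was higher for Cyp4b1 (5.52), Tsku (2.28), Cyp2d9 (2.44), Fmo5 (2.24), Aldh1a1 (1.81), Slc2a5 (2.08), Phospho1 (1.87), Gpt (1.74), Pmm1 (1.12), Ankrd9 (0.86), Car4 (1.68), Acaa1b (2.01) and Angptl4 (2.92). It was also higher for the metallothionein Mt2 (3.34), the somatostatin receptor Sstr1 (2.93) and Ly6g (1.89). The neutrophil list that holds Ly6g had a median difference of -0.76. It was lower after DSS for human ITGB6 (-3.59), Gm12338 (-2.91), Bst2 (-2.82), Isg15 (-3.02), Oasl2 (-2.40) and Fn1 (-3.42). Human ITGB6 had 2 counts in each untreated WT library and 12 and 21 in the WT DSS libraries, against 37587 to 65245 in TG, so its difference rests on a few WT counts. Oasl2, an interferon-induced gene, was at 346 and 179 CPM in WT and 130 and 163 in TG after DSS, and at 65.0, 91.4 and 53.3 in WT and 233, 176 and 211 in TG untreated. Sex differs with DSS in these libraries and the 2 cannot be told apart.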

How the results depend on the processing

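Against 26 genes called after DSS, DESeq2 gave 258 (197 higher and 61 lower), total count scaling 7 (6 higher and 1 lower), the 4 DSS libraries alone 8, and limma on log2 FPKM 9 at pseudocount 1 (7 higher and 2 lower), 8 at 0.1 and 12 without a filter (6 higher and 6 lower). Leaving out 1 library gave 4 to 145 genes. DESeq2 size factors, upper quartile scaling, no filter, a 1 CPM filter and robust estimation gave 25 to 32. For the difference of effects (119), DESeq2 gave 430 and leaving out 1 library 24 to 424. The labels do not say whether same-numbered libraries are pairs. With the replicate number as a block, 7 genes were called after DSS and 41 in the difference. Deviations of same-numbered libraries correlated at 0.206 after DSS and at 0.083, -0.013 and -0.186 untreated. Only 2 pairs exist after DSS, and their correlation is the same by construction, so these values cannot decide the pairing. None of the 26 genes changed direction. Uncalled genes did when 1 library was left out, where their log2 fold changes ran from -0.397 to 0.012 for Itgb6, -0.14 to 0.030 for Col3a1, -0.978 to 0.116 for Irf7, -0.971 to 0.037 for Gbp2, -0.821 to 0.194 for Col16a1 and -0.166 to 0.0051 for Hspa5. Reversal came without WT DSS 1 for Itgb6, Irf7, Gbp2 and Col16a1, without WT DSS 2 for Col3a1, and without TG DSS 2 for Gbp2 and Hspa5. The cause was not tested. Depth was similar in the DSS libraries, and 2 libraries a group limit precision.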
